A study of Mus musculus with 2 samples.

Results

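The neighbourhood of Tnfaip3 and Ifngr1 is a stretch of mouse chromosome 10 from 18500001 to 20200000 (1.7 Mb, mm10) that holds the immune genes Tnfaip3, Ifngr1, Il22ra2 and Il20ra and the neural gene Olig3. These 5 genes, of 21521 protein-coding genes on the chromosomes analysed, and the edges of the window were chosen by their measured loops, so the loop counts below are a description of the place and no test was made of them. Every chromatin loop with an anchor in the window or a span over it was taken, which gave 6 of the 1276 loops listed for replicate 1 and 19 of the 5729 listed for replicate 2. The window holds 14 protein-coding genes in all.

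The map comes from Hi-C, which joins and counts DNA fragments that lie near each other in the nucleus, in HPC5, a line of haematopoietic progenitors derived from mouse bone marrow with both copies of Etv6 intact (Etv6+/+). The cells were fixed in 2% formaldehyde for 10 min and processed with the Arima kit. There was 1 group of 2 replicates and no mutant, treated or stimulated sample, and the labels do not say whether the replicates were separate cultures, so the spread between them may be technical. A sample averages over its cells, so a loop present in fewer cells and a weaker loop in every cell cannot be told apart. The lists hold no expression values, so neither the activity of these genes nor the cell type was checked here.

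A loop is a pair of short stretches, the anchors, that meet more often than their surroundings do. Loops commonly form where cohesin extrudes chromatin until it is halted, often at bound CTCF, or where promoters meet distant regulatory elements. Tnfaip3 encodes A20, a ubiquitin-editing enzyme that shuts down NF-kB signalling and is itself induced by NF-kB, so that it closes a feedback loop after an inflammatory signal. Ifngr1 encodes the ligand-binding chain of the interferon gamma receptor. Il20ra encodes a receptor chain for cytokines of the interleukin 20 group, and Il22ra2 a secreted binding protein that captures interleukin 22 before it reaches its receptor. All 3 belong to the class II cytokine receptor family. Olig3 encodes a basic helix-loop-helix factor of the developing nervous system and has no known part in cytokine signalling.

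A listed start site lay inside a loop anchor for 3 of the 4 members that have one in the RefSeq promoter table (GRCm38.p6), namely Tnfaip3, Ifngr1 and Il20ra, against 14.9% of the 17274 protein-coding genes with an entry. Their promoters, from 250 bases before to 50 bases after the start, are shown because these are the promoters carried by the looped anchors. The first is that of the 5′ Tnfaip3 start (chr10:19015361-19015660, minus strand), the second that of its inner start (chr10:19011914-19012213, minus strand), and both starts lie in the same anchor. The others belong to Ifngr1 (chr10:19591699-19591998, plus strand) and Il20ra (chr10:19712337-19712636, plus strand). Capitals mark matches to the motifs named after them.
Tnfaip3, 5′ start: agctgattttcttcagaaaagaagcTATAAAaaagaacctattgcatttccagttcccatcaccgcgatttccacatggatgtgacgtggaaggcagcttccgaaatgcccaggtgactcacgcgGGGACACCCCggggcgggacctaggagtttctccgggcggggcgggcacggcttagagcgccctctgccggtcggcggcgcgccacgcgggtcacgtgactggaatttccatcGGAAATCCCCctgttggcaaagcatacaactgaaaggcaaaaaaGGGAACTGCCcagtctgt
Tnfaip3, inner start: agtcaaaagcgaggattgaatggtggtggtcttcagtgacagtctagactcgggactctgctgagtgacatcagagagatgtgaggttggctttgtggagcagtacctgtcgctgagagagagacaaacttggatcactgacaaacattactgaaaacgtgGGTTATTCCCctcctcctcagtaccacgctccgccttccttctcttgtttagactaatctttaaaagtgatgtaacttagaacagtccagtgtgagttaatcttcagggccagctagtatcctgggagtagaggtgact
Ifngr1: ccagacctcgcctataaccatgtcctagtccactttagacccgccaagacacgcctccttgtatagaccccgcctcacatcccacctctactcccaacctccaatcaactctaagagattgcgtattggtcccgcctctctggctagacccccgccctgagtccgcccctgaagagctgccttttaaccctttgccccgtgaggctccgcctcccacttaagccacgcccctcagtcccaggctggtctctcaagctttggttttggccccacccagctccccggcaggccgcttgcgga
Il20ra: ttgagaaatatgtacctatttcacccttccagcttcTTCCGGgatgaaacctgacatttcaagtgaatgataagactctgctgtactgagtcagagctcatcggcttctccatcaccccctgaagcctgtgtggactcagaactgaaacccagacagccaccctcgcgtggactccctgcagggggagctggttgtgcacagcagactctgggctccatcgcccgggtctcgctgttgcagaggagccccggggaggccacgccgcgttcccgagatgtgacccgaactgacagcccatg

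The motifs, searched on both strands, were an NF-kB type pattern (GGGA, any 4 bases, then CC), a STAT type pattern (TTC, any 3 bases, then GAA), an ETS type pattern (CCGGAA) and TATAAA. They occur in 20.9%, 8.34%, 15% and 13.7% of the 32620 promoters of the same table. The NF-kB consensus, a different pattern that matches some runs the first does not, was added after the promoters had been seen and occurs in 8.51%. Its letters are not spelled out here, so matches to it alone cannot be checked from the patterns above. Positions are counted from the start base as 0. The 5′ promoter of Tnfaip3 held the NF-kB type match GGGACACCCC at positions -125 to -116, which is also a consensus match. It further held the consensus match GGAAATCCCC at -12 to -3, the NF-kB type match GGGAACTGCC at 32 to 41, and TATAAA at -225 to -220. The inner promoter had 1 NF-kB type match, GGTTATTCCC. The Ifngr1 promoter had no match to any of these patterns, and that of Il20ra had only an ETS type match, TTCCGG. The Olig3 promoter had TATAAA at -180 to -175 and no other match. NF-kB matches were not confined to Tnfaip3 among the window's protein-coding genes. The Slc35d3 promoter had 1 NF-kB type and 2 consensus matches, and that of Arfgef3 had 2 and 1. The promoter at the Nhsl1 start 18469981 had 1 and 0, and the remaining listed promoters had none. Some patterns overlap in the same bases, and a match is a run of letters and not a measured binding site.

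The 5′ promoter of Tnfaip3 was also the richest in CpG of the members' promoters, with 22 CpG dinucleotides against a median of 7 over all promoters, and 76.7% of promoters had fewer. Ifngr1 had 14 and Il20ra 13, while the inner Tnfaip3 promoter had 6 and Olig3 had 4. The GC content was 56.7% at the 5′ Tnfaip3 start, 60.3% at Ifngr1 and 57.3% at Il20ra, all above the median of 53.0%. It was 47.0% at the inner Tnfaip3 start and 46.0% at Olig3, both below that median.

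Along the window the members lie in the order Tnfaip3, Olig3, Ifngr1, Il22ra2, Il20ra. Tnfaip3 runs on the minus strand from 19000910 to 19015410; sequence upstream of its start therefore lies at higher coordinates, on the side of Olig3. Olig3 (19356539 to 19358604) lies 341 kb from it. Ifngr1 (19591949 to 19610229), Il22ra2 (19622028 to 19634681) and Il20ra (19711673 to 19760053) form a close group, with 11.8 kb between the first pair and 77.0 kb between the second. Tnfaip3 and Ifngr1 are 577 kb apart.

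**Figure D1:**
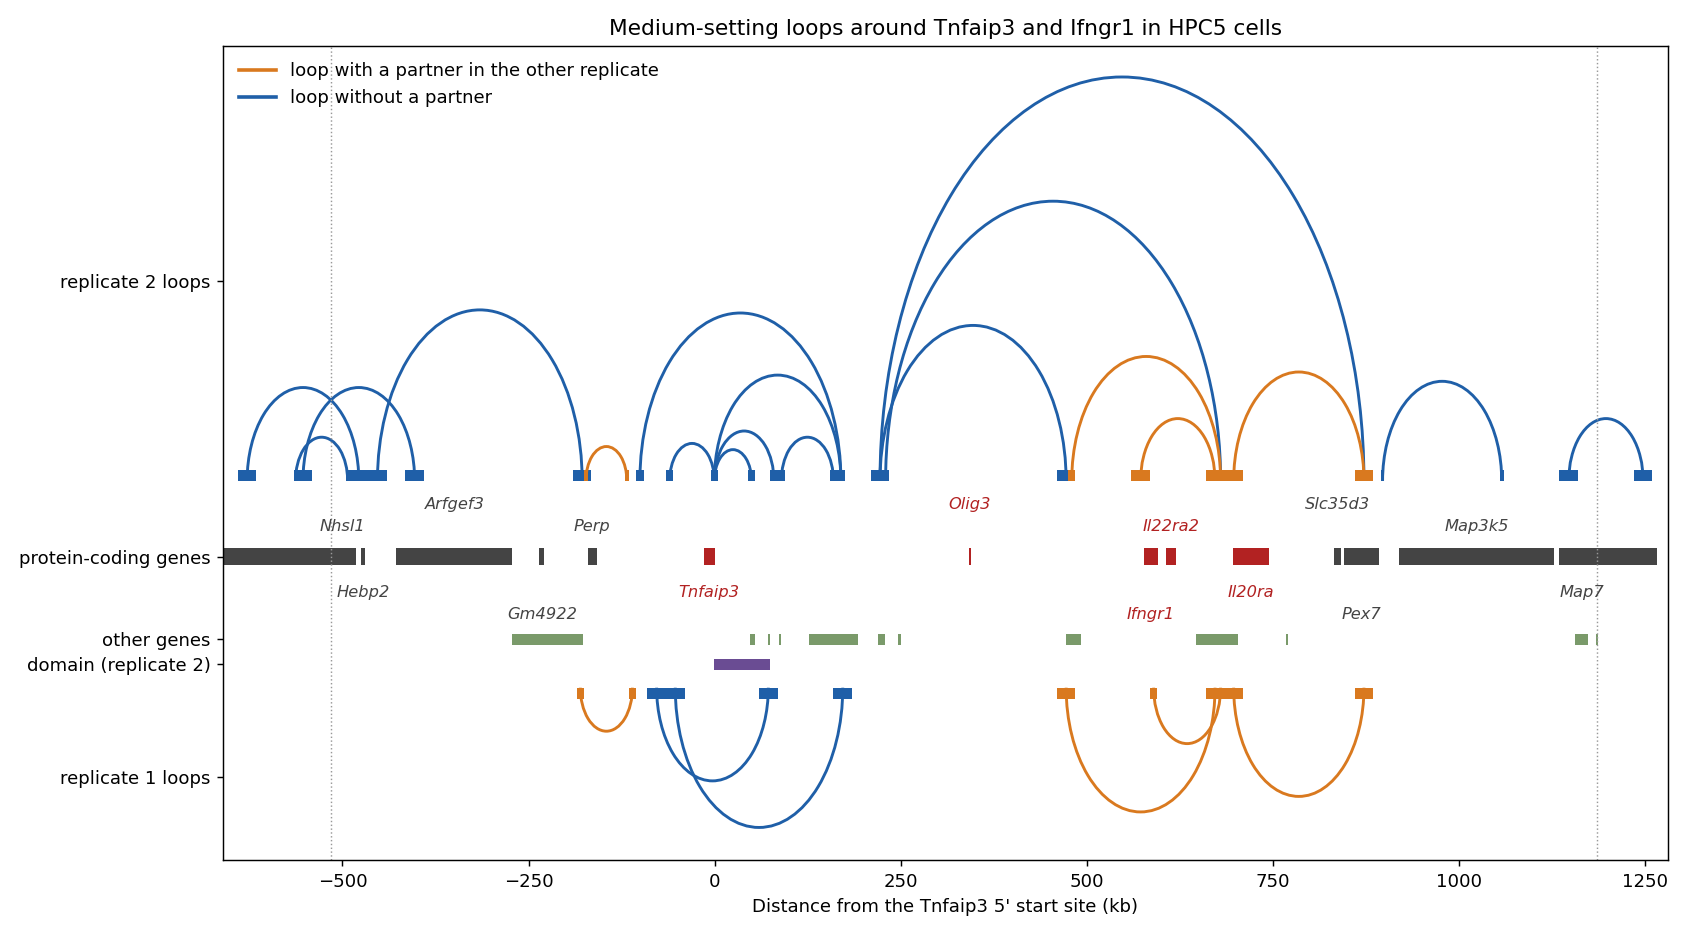
Loops of the window, drawn as arcs between their anchors (boxes), with replicate 2 above the genes and replicate 1 below them; the x axis is the distance in kb from the 5′ start of Tnfaip3, arc height is proportional to span, red genes are the 5 members and dotted lines are the window's edges. Replicate 2 has 19 arcs and replicate 1 has 6, and no arc joins the side of Tnfaip3 to that of Ifngr1.

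Each replicate has a medium-setting list, which is used here, and a shorter high-setting list. In replicate 1 the high-setting list held 202 loops, as many as the medium-setting list had on 10 kb anchors. In replicate 2 it held 3354, and the medium-setting list had 986 on 5 kb and 2368 on 10 kb anchors. In the window the high-setting lists held every loop on 5 or 10 kb anchors and none on 25 kb anchors, so standing there followed anchor width. Each listed loop carries a whole number tagged n, which the files do not define and which is larger on wider anchors. It is therefore set only against loops of the same list and the same anchor width. The span of a loop is the distance between its anchors' midpoints, and a loop has a partner when the other replicate lists a loop whose anchor midpoints both lie within 20 kb of its own.

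By gene ends inside anchors, Tnfaip3 had the most loops of the members, and all of them were in replicate 2. With ends counted within 20 kb of an anchor the summed order turns, with 7 loops for Il20ra over both replicates and 4 for Tnfaip3. The 7 count partner loops once in each replicate. Of these, 5 end at the neighbouring place 19675001 to 19699999, 2 in replicate 1 and 3 in replicate 2. In replicate 2 alone Il20ra does not pass Tnfaip3 by this rule. The Tnfaip3 start lay in an anchor on 10 kb bins at 19010001 to 19019999 from which 4 loops ran. The loop to 18950001 to 18959999, downstream of the gene, spanned 60 kb and had an n of 51, above 96.9% of the 2368 replicate 2 loops of that width. The other 3 ran upstream. The nearest reached 19060001 to 19069999, at the long non-coding RNA gene Gm51814, over 50 kb with an n of 46 (above 92.6%). The next reached 19090001 to 19099999, where no annotated gene lies, over 80 kb with an n of 57 (above 98.9%). The farthest reached 19180001 to 19189999, inside the non-coding gene Gm20139, over 170 kb with an n of 39 (above 79.7%). All 4 also stood in the high-setting list, as did every window loop on 10 kb anchors, so this sets them apart from none of these. On these anchors n was larger at short spans, with a median of 36 for loops within 25 kb of the 60 kb span and of 28 for those within 25 kb of the 170 kb span. Each was therefore also set against loops of its own width and a span within 25 kb, and the n was above 92.1%, 82.0%, 98.5% and 88.7% of these, in the order given.

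Replicate 1 had no anchor at Tnfaip3, and its nearest anchor lay 25911 bp away, at 18950001 to 18974999. It listed 2 loops that run over the gene, both on 25 kb anchors. The first joined 18925001 to 18949999 with 19075001 to 19099999 over 150 kb with an n of 33, and the second joined 18950001 to 18974999 with 19175001 to 19199999 over 225 kb with an n of 36. Neither had a partner in replicate 2. Of their 4 anchors, 3 overlap places that Tnfaip3 itself was joined to in replicate 2. The right anchor of the first covers the 80 kb target, and the anchors of the second cover the 60 kb and 170 kb targets. The left anchor of the first, at 18925001 to 18949999, overlaps no anchor of replicate 2. Replicate 2 also had a loop over the whole gene, which ends at the 170 kb target, from 18910001 to 18919999 to 19180001 to 19189999, of 270 kb with an n of 30. With replicate 2 left out, Tnfaip3 has no loop.

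Of all protein-coding genes, 24 (0.112%) had ends in anchors of 4 or more replicate 2 loops, and Tnfaip3 was one of the 19 with exactly 4. Genes with 0, 1, 2 and 3 such loops numbered 17254, 3473, 659 and 111. Since the gene was chosen on this count nothing further is read from it. Others of the 24, named after their counts were seen, were Bcl6, a transcriptional repressor gene of lymphocytes, Klf6, a zinc finger factor gene, and Btg1, an anti-proliferative gene. Bcl6 and Klf6 also had 1 loop in replicate 1, while Btg1, like Tnfaip3, had 0 there. At the level of anchors, 3 of the 10590 distinct replicate 2 anchors took part in 4 or more loops (0.0283%), and the Tnfaip3 anchor was the only one of the 3 on 10 kb bins. In replicate 1 no anchor had 3 or more.

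A contact domain ran from the start of Tnfaip3 to the anchor 80 kb upstream of it. Replicate 2 listed it at 19015001 to 19090000, a size of 75 kb, beginning 409 bp inside the 5′ start and ending at the base before the anchor at 19090001. It was among the small domains of that list, in which 14 of 339 were smaller, the smallest was 60 kb and the median 365 kb. Both edges lay within 10 kb of the anchors of 1 loop, which held for 31.3% of the 339 domains. Besides Tnfaip3 it touched only the non-coding genes Gm51814 and 1700124M09Rik. The neighbouring domains on the chromosome were far off, at 13070001 to 13425000 and 20360001 to 20945000. Replicate 1 listed 3 domains in all and none in the window, so the domain has no replicate.

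**Figure D2:**
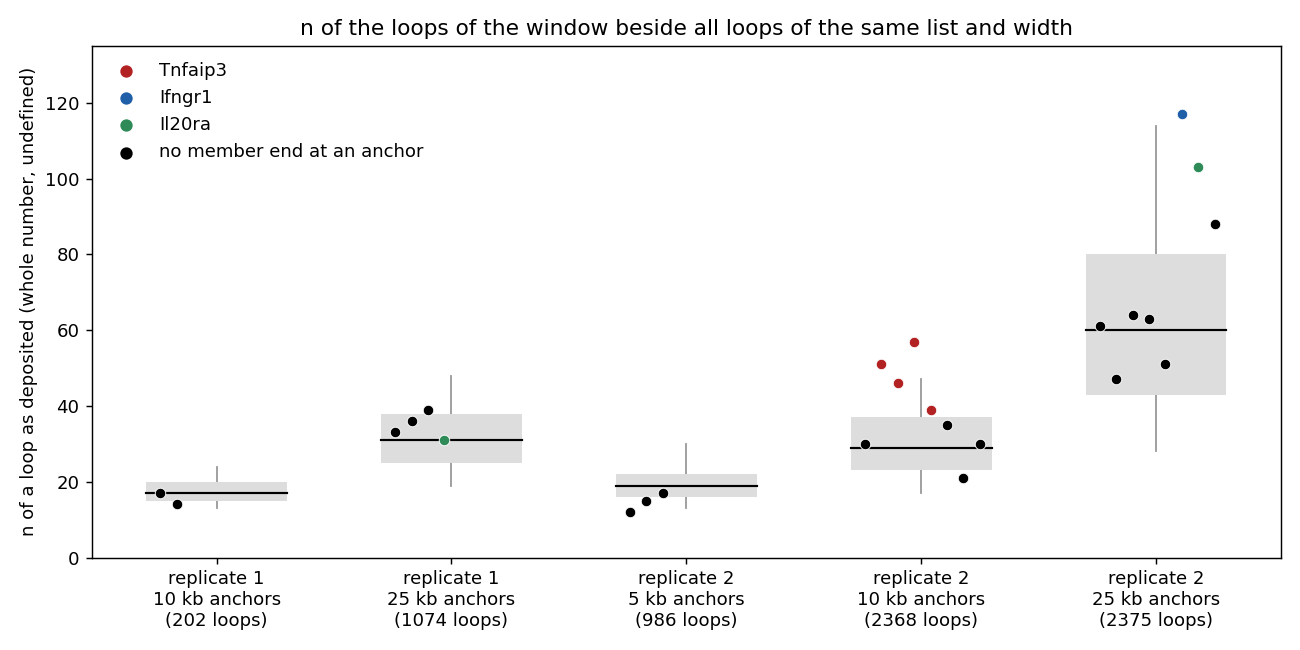
The value n (y axis, a whole number as deposited) of each loop of the window (points, coloured by the member gene whose end lies in an anchor), beside all loops of the same list and anchor width (grey box from the 25% to the 75% point, black line at the median, whisker from 5% to 95%). The 4 Tnfaip3 points lie between 39 and 57 over a median of 29, and the replicate 2 points of Ifngr1 and Il20ra at 117 and 103 over a median of 60.

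Ifngr1 was looped to the same place in both replicates, from neighbouring bins of different width that cover different parts of the gene. Which part of the gene makes the contact is not resolved. In replicate 2 its start lay in the anchor 19575001 to 19599999, joined to 19675001 to 19699999 over 100 kb with an n of 117, above 95.5% of the 2375 loops on 25 kb anchors and above 87.3% of those of like span. In replicate 1 an anchor at 19600001 to 19609999, inside the gene and ending 230 bp before its right end, was joined to 19690001 to 19699999 over 90 kb. That loop had an n of 14, above 7.43% of the 202 loops of its width. It stood in the high-setting list, as did every window loop of its width. The loops were partners, with midpoints 17.5 and 7.5 kb apart, yet the Ifngr1 anchors themselves do not overlap. By the rule of gene ends Ifngr1 thus counted at an anchor in replicate 2 only, and by gene bodies in both. The target of both loops lies downstream, inside the non-coding gene Gm33332, 95.6 to 103 kb from the Ifngr1 start.

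Il20ra had the only loop of the window listed at identical anchors in both replicates. Its start lay in 19700001 to 19724999, joined to 19875001 to 19899999 over 175 kb, a target inside the body of Pex7, which encodes the import receptor for a class of peroxisomal enzymes. The loop's n was 31 in replicate 1, above 47.8% of the loops of its width, and 103 in replicate 2, above 90.8%. The ratio of 3.32 was higher than in 133 of the 163 loops on 25 kb anchors listed identically in both replicates, whose median ratio was 2.87 with quartiles of 2.53 and 3.16. The Il20ra anchor also held the start of Gm33332, so the loop cannot be assigned to either gene. No loop of the window on 25 kb anchors stood in a high-setting list, and this one did not either.

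Il22ra2 and Olig3 had no end in any anchor and lay inside loops of other places. Il22ra2 sat between the anchors of 2 replicate 1 loops, of 90 and 200 kb, and of 4 replicate 2 loops, of 100, 200, 450 and 650 kb. The shortest of these in each replicate is the Ifngr1 loop, which passes over Il22ra2 to its target beyond. The nearest anchor to Il22ra2 was 12029 bp off in replicate 1 and 22029 bp in replicate 2. Olig3 lay between the anchors of 3 replicate 2 loops, of 250, 450 and 650 kb, and of no replicate 1 loop. Its nearest anchors were 116397 bp and 106540 bp away, the farthest of any member.

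In all, 3 of the 5 members reached an anchor of either replicate with an end, against 22.5% of all protein-coding genes. In replicate 1 only Il20ra had one, against 6.67% of genes, and in replicate 2 Tnfaip3, Ifngr1 and Il20ra had one, against 19.8%. The order by number of loops was Tnfaip3 with 4, then Ifngr1 and Il20ra with 1 each, in replicate 2, while in replicate 1 Il20ra stood alone with 1. The lead of Tnfaip3 therefore rests on replicate 2. Tnfaip3, Ifngr1 and Il22ra2 were each wholly between the anchors of a loop in both replicates, against 5.59% of all genes. These shares took part in choosing the genes and are given as background only.

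**Figure D3:**
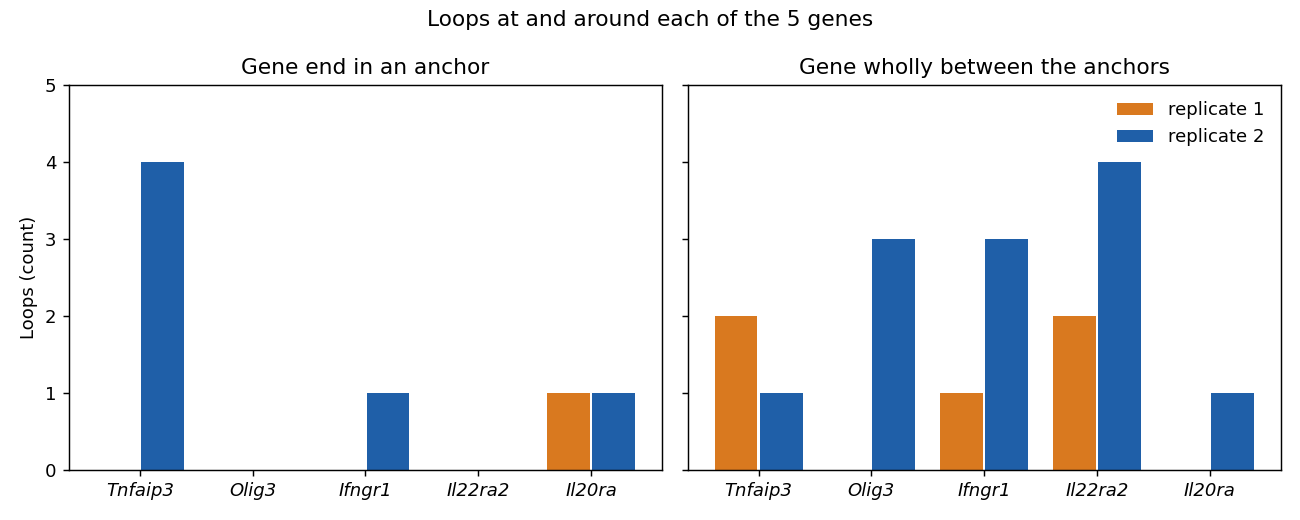
Number of loops (y axis, count) at each of the 5 members, in gene order, for replicate 1 (orange) and replicate 2 (blue), on the left with a gene end in an anchor and on the right with the whole gene between the anchors. Tnfaip3 has 4 loops at its end in replicate 2 and 0 in replicate 1, while Il22ra2 lies inside 2 and 4 loops.

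The loops of both replicates fell into 7 sets when overlapping anchors were joined into 1 place. Anchors that only meet at a bin edge were kept apart, and the number of sets depends on this. Tnfaip3 and the receptor genes lay in different sets. That of Tnfaip3 ran from 18910001 to 19199999 (290 kb), with 8 places, 2 replicate 1 loops and 6 replicate 2 loops. By this rule Tnfaip3 was its only protein-coding gene. The set meets the one on its left, with Arfgef3, Gm4922 and Perp, at a bin edge (18909999 and 18910001), but does not touch the receptor set. Within it, a loop of 70 kb with an n of 35 joined the pseudogene Tpi-rs5 at 19100001 to 19109999 to 19170001 to 19179999. The place at 19170001 to 19199999, in Gm20139, took part in 4 loops, 1 of them in replicate 1. It is 30 kb of joined anchors, whereas the 4 loops of the Tnfaip3 start share 1 anchor of 10 kb in replicate 2. Only the replicate 1 anchor at 19175001 to 19199999 joins the replicate 2 anchors of this place, and with them the Tpi-rs5 loop to the set.

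The set of the receptor genes ran from 19225001 to 19899999 (675 kb), with 7 places, 3 replicate 1 loops and 6 replicate 2 loops. It enclosed or touched Olig3, Ifngr1, Il22ra2, Il20ra, Slc35d3, a transporter-like gene needed for platelet dense granules, and Pex7. Its most connected place was the target of Ifngr1 at 19675001 to 19699999, with 5 loops, 2 in replicate 1 and 3 in replicate 2. From there loops ran to Ifngr1, to the non-coding gene Gm33104 at 19475001 to 19499999, and to the non-coding gene Gm40607 at 19225001 to 19249999. The Gm33104 loop of 200 kb recurred, with an n of 39 in replicate 1 and 30 in replicate 2 on narrower anchors. The Gm40607 loops were in replicate 2 alone. They reached Gm33104 over 250 kb with an n of 63, the Ifngr1 target over 450 kb with an n of 21, and the Pex7 anchor of the Il20ra loop over 650 kb with an n of 51. The last is the longest loop of the window. Its n was above 36.3% of the loops of its width but above 78.0% of the 50 of like span.

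No loop of either list crossed the 25 kb from 19200000 to 19225000, between the Tnfaip3 set and the receptor set. In replicate 1 alone the uncrossed stretch there was 275 kb, up to 19475000, and it held Olig3. In replicate 2 alone it was 35 kb. Elsewhere in the window the joint lists left 10 kb uncrossed at 19900000 to 19910000, before Map3k5, and 75 kb at 20075000 to 20150000. Loops thus covered 45.9% of the window in replicate 1 and 92.4% in replicate 2, against 10.8% and 35.9% of all chromosomes.

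**Figure D4:**
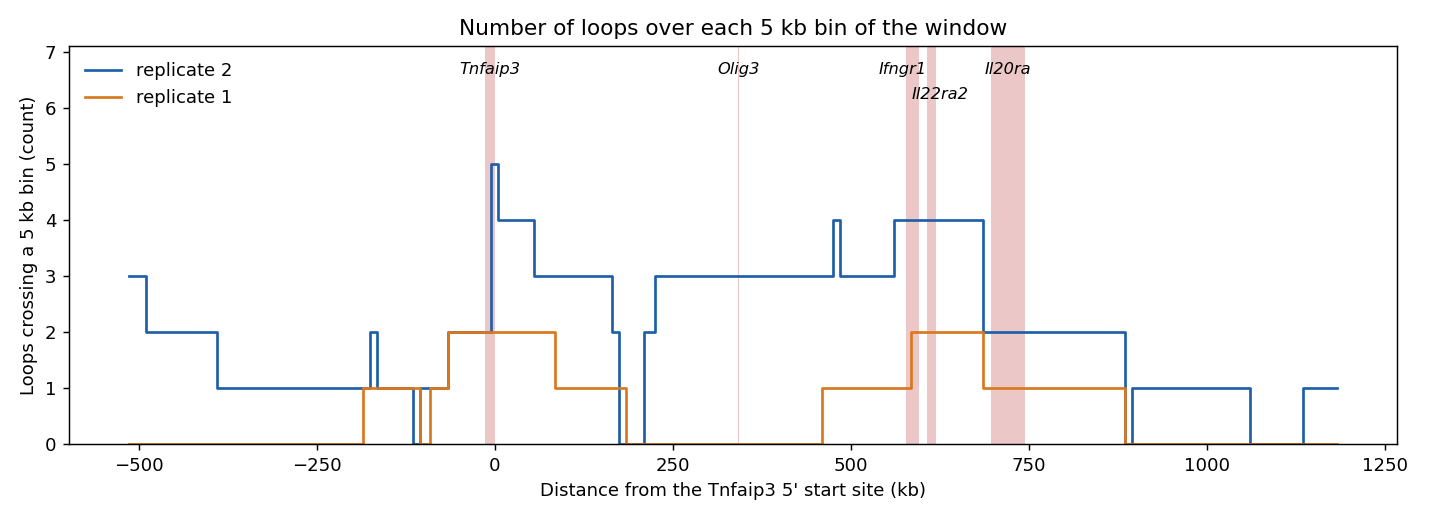
Number of loops that run over each 5 kb bin of the window (y axis, count) by distance in kb from the 5′ start of Tnfaip3, for replicate 1 (orange) and replicate 2 (blue), with the 5 members shaded. Replicate 2 reaches its highest count, 5, at the Tnfaip3 start. Between Tnfaip3 and Olig3 both lines are at 0 together over 25 kb only, and replicate 1 stays at 0 over Olig3.

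The remaining loops of the window lay at its flanks. On the left, replicate 2 joined 18525001 to 18549999, with ends of Nhsl1 and of Hebp2, which encodes a haem-binding protein, to a place inside Nhsl1 over 150 kb (n of 61). A second loop, of 70 kb with an n of 12, stayed within Nhsl1, and another, of 150 kb with an n of 47, joined Nhsl1 to the body of Arfgef3. Perp, a p53 target gene whose product sits in cell junctions, had its left end in 18825001 to 18849999, along with ends of the non-coding genes Gm32926 and 4930444F02Rik, and was joined to 18550001 to 18574999 over 275 kb (n of 64). Each replicate also listed a short loop that runs over the whole of Perp, and these were partners within 20 kb although their anchors do not overlap. The loop spanned 70 kb from 18830001 to 18839999 in replicate 1 (n of 17) and 55 kb from 18840001 to 18844999 in replicate 2 (n of 15). On the right, a 160 kb loop with an n of 17 reached into Map3k5, the gene of the stress kinase ASK1. A 100 kb loop with an n of 88 lay inside Map7, a microtubule-associated protein gene. The loops at the edges 18500001 and 20200000 were the Nhsl1 and Map7 ones. Beyond them the next replicate 1 anchors were at 18175001 to 18199999 and 20350001 to 20374999.

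Counting the flanks, 6 of the 14 protein-coding genes of the window reached an anchor with an end, against 22.5% of all protein-coding genes, and 1 of them did in replicate 1, against 6.67%. Most anchors of the window held no protein-coding end. Such an end lay in 1 of 12 distinct replicate 1 anchors (8.33%, against 44.1% of all anchors) and in 5 of 31 replicate 2 anchors (16.1%, against 34.7%). Ends of other genes, mostly long non-coding RNAs, were in 4 of 12 anchors (33.3%, against 33.4%) and in 8 of 31 (25.8%, against 24.9%). A further 5 and 13 anchors lay in a gene body with no end, and 3 and 7 touched no annotated gene. Anchors of the window share loops and overlap, so no test was made of these shares.

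By the 20 kb rule most loops with a partner lay around the receptor genes. In replicate 1, 4 of the 6 loops had a partner, against 80.6% of its whole list, and the remaining 2 are those over Tnfaip3. In replicate 2, 4 of the 19 had one, against 18.2%. None of the 8 loops of the Tnfaip3 set had a partner within 20 kb, while 3 loops of the receptor set did in each replicate, those at Ifngr1, Il20ra and Gm33104. The fourth was the short loop over Perp. This depends on the rule. Within 50 kb the 225 kb loop of replicate 1 and the 270 kb loop of replicate 2, both over Tnfaip3, were partners too. Where anchors had to overlap, only the Il20ra and Gm33104 loops had partners. Between the high-setting lists the loop over Perp was the only one with a partner. Each partner pair of the receptor set had a loop on 25 kb anchors. The high-setting lists held no such loop of the window, so they could not show these pairs.

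For comparison the chromosomes were divided into 1.7 Mb stretches, of which 1501 did not overlap the window. These held a median of 1 replicate 1 loop and 4 replicate 2 loops, with most at 8 and 18. At least 6 replicate 1 loops were found in 6 stretches (0.4%) and at least 19 replicate 2 loops in 0 (0.0%). Among the 480 stretches with a number of protein-coding genes within 5 of the 14 in the window, the medians were 1 and 5, and 2 and 0 had as many. The window's edges were set with its loops known, while the stretches lie on a fixed grid, so a high count was favoured by the choice. The median spans of its loops were 162.5 kb in replicate 1 and 150.0 kb in replicate 2, and that of each whole list was 150.0 kb.

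**Figure D5:**
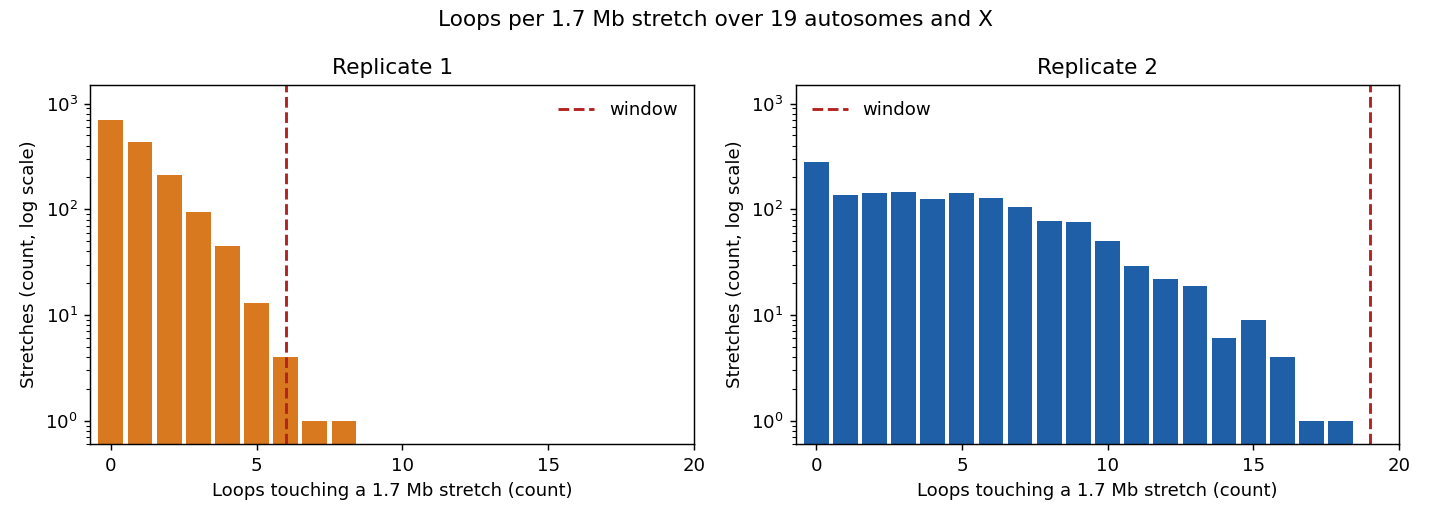
Number of 1.7 Mb stretches of the 19 autosomes and X (y axis, count on a log scale) by the number of loops that touch them (x axis), for replicate 1 on the left and replicate 2 on the right, with the window as a dashed red line at 6 and 19. Stretches that overlap the window are left out, and the window was chosen for its loops.

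The genes that act with the members were looked up in the same lists. Among 14 genes that restrain NF-kB, 6 had an end in an anchor of either replicate, against 22.5% of all protein-coding genes: Tnfaip3, Nfkbia, Tnip2, Cyld, Otulin and Bcl3. Without Tnfaip3, which was chosen for its loops, the count was 5 of 13. Nfkbia, which encodes the inhibitor that holds NF-kB in the cytoplasm, was the only one of them with an anchor in both replicates. Its loop spanned 100 kb (n of 46) in replicate 1 and 120 kb (n of 46, on narrower anchors) in replicate 2, and the loops were partners. Tnip2, whose product binds A20, and the deubiquitinase genes Cyld and Otulin had 1 replicate 2 loop each, of 125, 65.0 and 125 kb. Bcl3, an atypical inhibitor of the same family as Nfkbia, had loops of 60 and 35 kb. None of the 5 NF-kB subunit genes had an end in an anchor.

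Of 12 class II cytokine receptor genes 4 had an end in an anchor (22.5% of all genes), namely Ifngr1, Il20ra, Il20rb and F3. Outside the window the count was 2 of 9, a share near that of all genes. Il20rb encodes the chain that pairs with the product of Il20ra, and its replicate 2 loop spanned 175 kb (n of 59). F3 encodes tissue factor, the starter of coagulation, with a replicate 2 loop of 180 kb (n of 46). Ifngr2, the second chain of the interferon gamma receptor, had none. Of 7 ligand genes only Ifnb1 had one, a replicate 2 loop of 100 kb with an n of 157, and Ifng and Il22 had none. Downstream of the interferon gamma receptor, the kinase genes Jak1 and Jak2 and the feedback inhibitor gene Socs1 had ends in replicate 2 anchors, while Irf1 did not. The loops spanned 200 kb at Jak1, 190 kb at Jak2, the only one of these with a replicate 1 partner, and 200 and 125 kb at Socs1. Olig1 and Olig2, the relatives of Olig3, had no end in an anchor.

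Over all 46 of these genes 14 had an end in an anchor, all of them in replicate 2 and 2 also in replicate 1, and the median number of loops was 0. Outside the window the count was 11 of 41, against 22.5% of all protein-coding genes in either replicate. The lists were drawn up with earlier results of these loops known, and nothing particular to them is read from the counts.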

How the data were processed

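Hi-C was done in 2 samples of HPC5 cells. HiC-Pro 2.11.1 and the build mm10 stand in the submitters' processing notes. What called the loops and domains, and what n means, is not given in the sources used here. The authors deposited, per replicate, a medium-setting and a high-setting loop list and a domain list. Each list belongs to 1 replicate and gives no read totals, so the depth is unknown and no interval or floor was computed. Loop coordinates were kept as deposited, and 1 base was added to domain starts.

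Gene positions were those of RefSeq on GRCm38.p6, which mm10 names, without 345 genes of scaffolds. A gene was at an anchor if its left or right end fell inside. Promoters were matched by gene for 12 of the 14 protein-coding genes of the window. Analyses used Python 3.11.15, pandas 2.3.3 and numpy 2.4.6. The matching of partners was tested on deposited replicate 2 loops moved by known distances, and the anchor rule on made-up genes. Only these steps were tested so. Counts and shares are given with no test, since there was 1 group. The genes named are the 5 members, the protein-coding genes of the window or at its anchors, and the genes of the 6 lists, and any other is said to be named after its counts were seen. A gene of these lists is not reported here. The members and lists were chosen with earlier results of these data known. Alternatives were the high setting, other window edges, other matching distances, other rules for a gene at an anchor, and each replicate left out.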

Additional observations from a re-analysis of the deposited data

How the results depend on the processing

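Of 92 alternatives tried on 16 counts, 61 left the count within 1.5 times and 31 did not, 9 of them among the 30 for single gene lists. The tally is no measure of stability. A count of 0, as for Olig3, could not change where loops were only removed, and such cases are among the 61. A count summed over both replicates, as for Il20ra, falls when either is left out, even where both list the same loop. With the high setting the window held 2 loops in replicate 1 and 11 in replicate 2, and 1 loop had a partner in each. That setting left out every window loop on 25 kb anchors, among them those of Il20ra and the replicate 2 loop of Ifngr1. Partners, 4 in each replicate, fell to 1 with identical anchors and to 2 when anchors had to overlap, and were 3 within 10 kb and 5 within 50 kb. Leaving out a replicate gave 0 to 4 loops for Tnfaip3, 0 to 1 for Ifngr1, 1 for Il20ra instead of 2, and 2 to 14 list genes at an anchor instead of 14. Without replicate 2 Tnfaip3 and Ifngr1 had no loop by the rule of gene ends, though by gene bodies Ifngr1 kept its replicate 1 loop. For Ifngr1 the count was 2 instead of 1 with gene bodies and with ends within 5, 10 or 20 kb, and 0 with the high setting. The high setting gave 0 for Il20ra and 6 for the list genes. With ends within 20 kb Il20ra had 7 loops summed over both replicates and Il22ra2 had 1. Widening the window gave 8 and 22 loops, and narrowing it 6 and 15. Counting gene ends within 20 kb of an anchor, listed starts, the NF-kB consensus and the rank among loops of like span were chosen after seeing the data. No paired analysis was possible because there is 1 group. The lists give no depth, so a loop missing from the shorter replicate 1 list is not shown to be absent from those cells.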
